A study of Mus musculus with 75 samples.

Results

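The transcripts of 10 regulators of naive pluripotency were followed through mouse germ cells taken from embryos and through germ cell-like cells grown from embryonic stem cells. The genes were taken by symbol from the table of all genes and are 10 of 26218: Pou5f1, Sox2, Nanog, Esrrb, Klf2, Zfp42, Tfcp2l1, Tbx3, Utf1 and Nr0b1. All 10 are present in the table. They were read in all 75 libraries, which fall into 37 groups.

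Several of these factors help to hold embryonic stem cells in the naive, ground-like state. There they bind near their own genes and near genes of the others, so that the network keeps itself on. The early germ line runs much of the same network while it also runs germ cell genes. In the fetal ovary the germ cells leave this state as they enter meiosis, and in the fetal testis they leave it as they arrest and take up the male programme. Pou5f1 (the protein OCT4) and Sox2 act as a pair on DNA, and Nanog, a homeodomain factor, stands with them at the core. Around that core are Esrrb (an orphan nuclear receptor), Klf2 (a zinc finger factor of the KLF family), Tfcp2l1 (a factor of the CP2 family downstream of LIF), Tbx3 (a T-box factor) and Nr0b1 (the protein DAX1, a corepressor of nuclear receptors). Zfp42 (the protein REX1, a zinc finger factor) is a classic marker of the naive state, and Utf1 is a chromatin-associated factor of pluripotent cells. Pou5f1, Sox2 and Utf1 are also used in the primed state, so the name naive is looser for them.

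The embryo libraries came from embryos of mixed ICR and C57BL/6 background, 2 libraries per group. Germ cells of E12.5 to E15.5 were sampled as female and as male, and those of E9.5, E10.5 and E11.5 carry no sex in their labels. They were sorted on a Dppa3-EGFP transgene up to E13.5 and on a Ddx4-RFP transgene at E14.5 and E15.5 (1 copy of each, written Tg/0). In culture, germ cell-like cells (PGCLCs) of a 129S1:C57BL/6 stem cell line with the reporters Prdm1-mVenus and Dppa3-ECFP were sampled on the day they went onto m220 feeder cells (day 0), at day 3 (CT), and under RB, RA or CT at days 5, 7 and 9, with 2 libraries per group. Factors of the female fate were added at culture day 3. The labels do not spell out RB, RA or CT, and these stand here as group names. A DBA/2:C57BL/6 experiment compared Stra8-/- cells (4 libraries per time: 2 of line SK1 and 1 each of SK2 and SK3) with wild type cells (2 libraries per time) on day 3 under CT and on days 5, 7 and 9 under RB. Both genotypes of this experiment carry the same 2 reporters, Prdm1-mVenus and Dppa3-ECFP. Day 0 cells were sorted as BV positive and cultured cells as SC positive, in the words of the labels. Stra8 is the gatekeeper of meiotic entry in the ovary. Another 7 libraries are alone in their group: 1 of the 129S1:C57BL/6 line named 0R3B (day 9), and 6 of a C57BL/6 line that has the same 2 fluorescent reporters and the allele Gtrosa26tm1Sor/0. The labels do not say whether the libraries of a group came from separate cultures or animals, so p-values measure the spread between these libraries, which may be technical.

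Each library was made by SC3-seq, which reads the 3' ends of transcripts, and levels are in RPM (reads per 1000000 reads). The estimated depth was 1.08e+06 to 1.56e+07 reads per library, so that 3 reads, the least taken as measured, correspond to 0.192 to 2.78 RPM. A gene is said to have risen or fallen, and is called, at a limma adjusted p (Benjamini-Hochberg, over all genes tested in that experiment) below 0.05 together with a log2 fold change of 1 or more in size, on the scale of log2(RPM + 1). That scale understates the change of low genes. Where libraries are said not to overlap, this describes the same values as the tests and adds no separate evidence. Groups of 2 libraries can fail to overlap by chance, and the share of all genes that do so was not computed. In the Stra8-/- libraries Stra8 itself read 105, 77.9, 122 and 483 RPM at RB day 9, the highest of them in line SK3, against 1813 and 1717 RPM in wild type cells. Which part of Stra8 was deleted is not in the labels, and reads from outside it would still be counted. All 8 genes of a germ cell list were above 0 in every group, with summed levels of 1435 to 8093 RPM over all libraries. Of 12 markers of gonadal somatic cells, Amh was at 0 in all libraries and the sum never passed 78.3 RPM. E9.5 libraries stood apart in a list of blood and endothelium genes, at 2999 to 3194 RPM against 114 to 127 RPM at E11.5. In bulk libraries such as these, fewer cells with a transcript and less of it per cell cannot be told apart.

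The promoters of 4 members are shown because these genes parted ways in the testis: Nanog and Sox2 fell there, while Pou5f1 and Utf1 did not pass the test. Each stretch runs from 250 bases before to 50 bases after the start of transcription (RefSeq, GRCm38.p6, plus strand): Nanog at chr6:122707239-122707538, Sox2 at chr3:34649745-34650044, Pou5f1 at chr17:35505782-35506081 and Utf1 at chr7:139943606-139943905. Capitals mark matches, on either strand, to an octamer core (ATGCAAA), a SOX core (ACAATG), an ESRRB core (AAGGTCA) or a KLF core (GGGNGTG), which were picked after the expression values were known. No 2 marked matches overlap in the 4 stretches.
Nanog: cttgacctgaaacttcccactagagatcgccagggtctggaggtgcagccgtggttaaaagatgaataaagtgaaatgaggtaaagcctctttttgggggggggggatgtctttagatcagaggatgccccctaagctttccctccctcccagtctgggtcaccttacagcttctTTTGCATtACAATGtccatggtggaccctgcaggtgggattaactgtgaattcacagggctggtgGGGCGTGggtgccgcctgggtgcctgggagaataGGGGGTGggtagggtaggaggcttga
Sox2: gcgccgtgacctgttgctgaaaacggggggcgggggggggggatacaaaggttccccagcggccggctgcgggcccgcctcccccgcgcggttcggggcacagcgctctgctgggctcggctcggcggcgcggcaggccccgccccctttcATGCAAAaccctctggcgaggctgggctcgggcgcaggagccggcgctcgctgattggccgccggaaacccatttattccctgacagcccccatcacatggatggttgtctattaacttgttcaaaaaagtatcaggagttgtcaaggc
Pou5f1: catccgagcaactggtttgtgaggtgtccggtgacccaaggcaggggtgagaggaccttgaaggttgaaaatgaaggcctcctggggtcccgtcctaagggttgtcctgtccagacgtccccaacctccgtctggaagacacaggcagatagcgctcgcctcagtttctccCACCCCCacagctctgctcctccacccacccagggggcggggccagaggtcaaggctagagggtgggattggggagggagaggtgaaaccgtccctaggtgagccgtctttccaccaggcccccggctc
Utf1: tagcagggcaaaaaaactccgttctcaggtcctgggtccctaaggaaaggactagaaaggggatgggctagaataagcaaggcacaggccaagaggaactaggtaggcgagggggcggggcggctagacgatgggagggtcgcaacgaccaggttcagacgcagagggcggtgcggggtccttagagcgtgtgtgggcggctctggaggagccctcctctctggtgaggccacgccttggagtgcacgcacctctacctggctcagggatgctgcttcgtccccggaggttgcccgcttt
In the Nanog stretch an octamer match (TTTGCAT, on the minus strand) lies at -75 and a SOX match (ACAATG) at -67 from the start, next to each other. Sox2 has an octamer match at -99. The Pou5f1 stretch has a KLF match at -79, and Utf1 has no match to any of the 4. Of the 10 members, 9 have at least 1 promoter in the RefSeq table (12 in all). Of those 12, 4 promoters of 3 genes (both Nanog starts, Sox2 and Zfp42) held an octamer match, against 4.63% of all 32851 promoters of that length. A SOX match was in 4 (both Nanog starts, Esrrb and the second Pou5f1 start), against 12.6%, and a KLF match in 7 of 6 genes, against 29.2%. An ESRRB match was in 0 of the 12, against 4.72%. The stretch of the other Nanog start, chr6:122707315-122707614, overlaps the one shown. The same octamer, SOX and KLF sites of Nanog are therefore counted in both. A match is a run of letters and not a bound site, and a missing match says nothing of the factor.

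In germ cells that had not yet been labelled by sex, 3 members rose between E9.5 and E11.5 and none fell. Zfp42 stood at 30.1 and 28.4 RPM at E9.5, 69.2 and 68.3 at E10.5 and 105 and 98.97 at E11.5 (log2 fold change 1.77, SE 0.16, adjusted p = 1.92e-08). Utf1 stood at 299 and 277 RPM, then 635 and 696, then 826 and 743 (log2 fold change 1.44, SE 0.14, adjusted p = 1.20e-07). Nr0b1 was lower throughout and rose too, with 12.2 and 9.91 RPM at E9.5, 46.0 and 32.0 at E10.5 and 27.6 and 39.1 at E11.5 (log2 fold change 1.50, SE 0.45, adjusted p = 0.0187). The Nr0b1 call was lost with a pseudocount of 0.25 RPM, without the filter on low values and without either replicate (log2 fold change 1.88 without replicate 1 and 1.12 without replicate 2), and its call at E10.5 was lost without either replicate and with that pseudocount. The libraries of E11.5 do not overlap those of E9.5 in any of the 3 genes. These are 3 of the 9 members tested, where 5.01% of all genes rose and 6.37% fell. The same 3 had risen by E10.5, where 2.56% of all genes rose, and no member was called at E11.5 against E10.5, where 1.13% of all genes were. None of the core trio was called: Nanog averaged 138 ± 1.97 RPM at E11.5 and 138 ± 4.03 at E9.5, and Pou5f1 457 ± 25.0 at E11.5 and 479 ± 17.7 at E9.5 (SD, n = 2). Sox2 was lower at E11.5 without passing the test, at 289 ± 40.4 RPM, against 384 ± 16.7 at E9.5. At an unadjusted p under 0.05 limma again had 0 members lower at E11.5 than at E9.5. Markers of other cells moved over the same days: the fibroblast list of 9 genes summed to 3.76 to 5.77 RPM at E11.5, against 126 to 128 at E9.5, and the blood and endothelium list of 8 to 114 to 127 RPM at E11.5, against 2999 to 3194 at E9.5, where globin genes made up most of it (Hbb-y had 3.79 ± 3.55 RPM at E11.5 and 1767 ± 61.5 at E9.5). Their part in the 3 rises was not tested.

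Tbx3 was close to absent from the embryo libraries. Its highest value in any of the 22 was 1.83 RPM (an E10.5 library), it was at 0 in 10 of them, and it did not reach the level required for a test there. The counts for the embryo below are therefore out of 9.

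**Figure D1:**
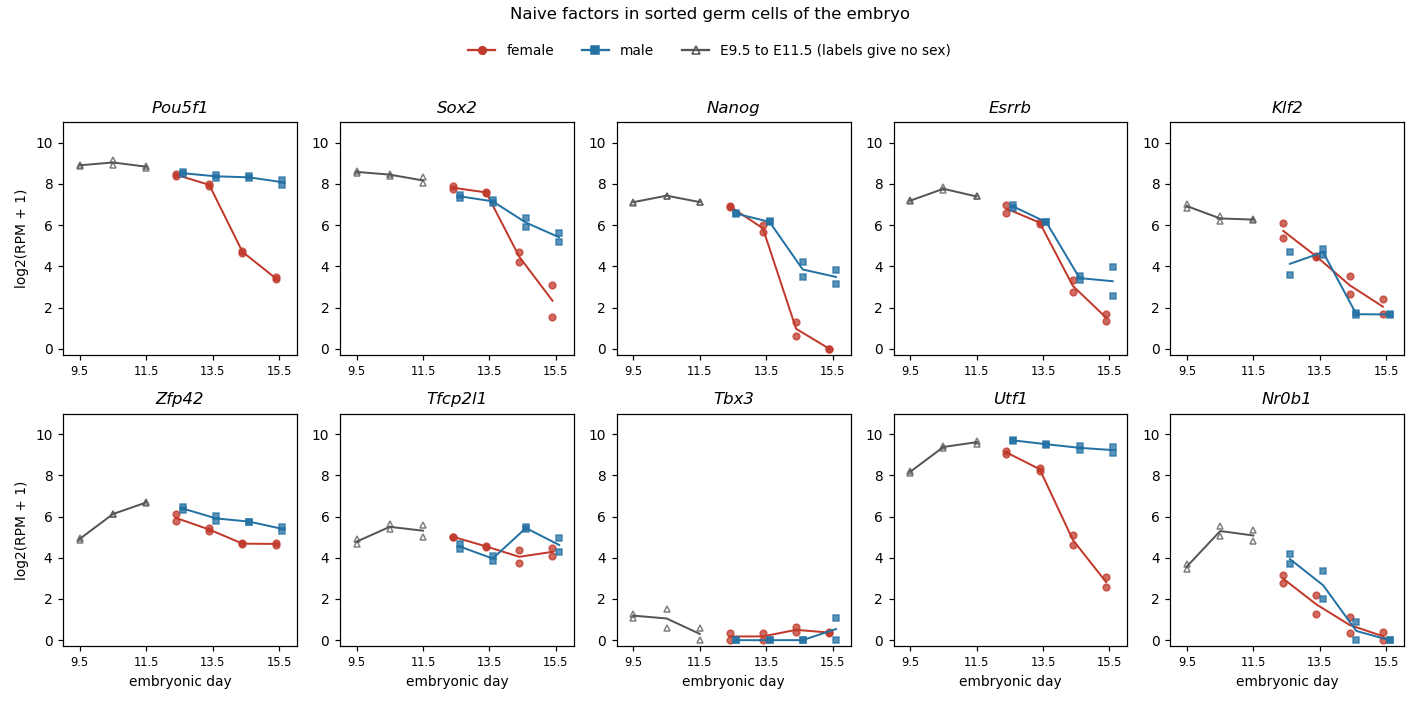
Levels of the 10 members in germ cells sorted from embryos, as log2(RPM + 1) on the vertical axis against embryonic day. Each point is 1 library (2 per group), lines join group means, females are red circles, males blue squares and libraries without a sex label open triangles. Utf1 is lower in females from E12.5 and is called so from E13.5, and Pou5f1 is called lower in females from E14.5. Nanog and Sox2 fall in both sexes but further in females, and Klf2 and Nr0b1 end low in both.

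In the ovary all 9 members tested had fallen by E14.5, and the stage at which each was first called was staggered. Taking E11.5 as the start, the median share of the starting level left in females was 70.7% at E12.5, 41.1% a day later, then 5.48%, and 1.65% at E15.5. Nr0b1 went first: it read 7.996 and 5.93 RPM in female germ cells at E12.5, against 27.6 and 39.1 at E11.5 (log2 fold change -2.10, SE 0.45, adjusted p = 0.00211), and was the only member called at that stage, out of 3.44% of all genes called lower. The call was lost when replicate 2 was left out. At E13.5 there were 6 lower (Nanog, Esrrb, Klf2, Zfp42, Utf1 and Nr0b1), against 7.69% of all genes. Pou5f1, Sox2 and Tfcp2l1 were not called until E14.5, but at E13.5 they already stood at 54.1%, 66.4% and 56.7% of the start. At an unadjusted p under 0.05, 5 members were lower at E12.5 and all 9 at E13.5. At E14.5 9 of 9 were called lower against 22% of all genes, and 9 of 9 remained so at E15.5 against 24.5%.

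On the log2 scale, each gene of the core trio had its largest fitted drop between neighbouring stages from E13.5 to E14.5. For Nanog the later step runs into the floor of 3 reads, so its size could not be ranked against that drop. Pou5f1 in females read 361 and 338 RPM at E12.5, 256 and 239 at E13.5, 26.2 and 23.97 at E14.5 and 9.43 and 10.0 at E15.5. Sox2 read 234 and 216 RPM at E12.5, 194 and 189 at E13.5, 25.3 and 17.5 at E14.5 and 7.61 and 1.95 at E15.5. Nanog read 122 and 118 RPM at E12.5, 50.2 and 63.8 at E13.5, 1.47 and 0.548 at E14.5 and was listed at 0 in both libraries of E15.5. None of these libraries of E14.5 or E15.5 overlaps one of E13.5. For E14.5 against E13.5 the log2 fold change was -3.25 for Pou5f1 (SE 0.11, adjusted p = 4.44e-16), -3.12 for Sox2 (SE 0.28, adjusted p = 2.59e-09) and -4.88 for Nanog (SE 0.25, adjusted p = 2.13e-13). In all, 6 of 9 members fell over that step, against 19% of all genes, and 5 of 9 fell further to E15.5, against 3.45%. That last count is 3 when replicate 1 is left out, and also 3 with a pseudocount of 5 RPM or with only the 2 groups in the fit. With 3 reads as the floor, Nanog was at least 151-fold lower at E15.5 than at E11.5. The reporter used for sorting changed at this same step, so stage and reporter cannot be told apart within a sex. Between the sexes, at one stage, the reporter is the same.

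Among the naive factors around the core, Esrrb in females read 66.3 and 71.2 RPM at E13.5 and 1.52 and 2.23 at E15.5, against 167 and 167 at E11.5 (log2 fold change -5.88, SE 0.28, adjusted p = 7.58e-15). Klf2 read 21.0 and 21.5 RPM at E13.5 and 4.26 and 2.23 at E15.5, against 74.8 and 77.6 at E11.5 (log2 fold change -4.23, SE 0.34, adjusted p = 8.85e-11). At E15.5 1.12% of the starting mean of Esrrb and 4.25% of that of Klf2 were left. Nr0b1 ended at 0.304 and 0 RPM in the females, under the level of 3 reads. That is 1 read in both libraries together, and 0.444% (exact 95% interval 0.0112 to 2.50%, counting error only) of the pooled level at E11.5.

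Zfp42 and Tfcp2l1 kept the largest shares of their level in the ovary. Zfp42 in females read 25.2 and 24.4 RPM at E14.5 and 23.3 and 25.7 at E15.5, which left 24.1% of the E11.5 mean (log2 fold change -2.01, SE 0.16, adjusted p = 6.39e-11). Tfcp2l1 read 12.4 and 19.4 RPM at E14.5 and 21.3 and 16.1 at E15.5, against 31.5 and 47.8 at E11.5, which left 47.2% (log2 fold change -1.03, SE 0.26, adjusted p = 0.0012). The Tfcp2l1 call was lost with a pseudocount of 5 RPM and when replicate 2 was left out (log2 fold change -0.54). Utf1 was at the other end, with 7.30 and 5.01 RPM in females at E15.5, 0.785% of its E11.5 mean (log2 fold change -6.79, SE 0.14, adjusted p = 3.07e-21). Over the 9 members the median log2 fold change of female E15.5 against E11.5 was -5.42, the same with Nanog set at its bound, and over all genes it was 0.10.

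In the testis the same 9 members spread out. By E15.5 Klf2 fell to 2.85% of its E11.5 mean, Nr0b1 was listed at 0, and Nanog, Esrrb, Sox2 and Zfp42 fell to 7.64%, 5.91%, 14.6% and 40.7% of their E11.5 mean. Pou5f1, Utf1 and Tfcp2l1 did not pass the test at E15.5. The median share of the E11.5 level left in males was 67.4% at E12.5, 49.2% a day later, then 24.1%, and 14.6% at E15.5. At E12.5 the single member called lower was Klf2, at 10.8 and 24.7 RPM in males against 74.8 and 77.6 at E11.5 (log2 fold change -2.15, SE 0.34, adjusted p = 1.37e-04), with 3.37% of all genes lower. There were 5 lower at E13.5 against 6.88% of all genes, 5 at E14.5 against 17% and 6 at E15.5 against 18.5%. The E13.5 count was 1 without replicate 2 and 2 without replicate 1, and is 8 with no minimum fold change.

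Pou5f1 in males read 378 and 356 RPM at E12.5, 311 and 351 at E13.5, 329.6 and 309 at E14.5 and 249 and 295 at E15.5. At E15.5 that left 59.4% of the start, with a log2 fold change of -0.75 (95% interval -0.98 to -0.52, adjusted p = 2.97e-06), short of the size required. Utf1 in males read 819 and 843 RPM at E12.5, 715 and 746 at E13.5, 686 and 609 at E14.5 and 548 and 655 at E15.5, with 76.7% left (log2 fold change -0.39, 95% interval -0.68 to -0.09). Both libraries of every male stage are above the female libraries of E14.5 and E15.5 for these 2 genes.

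Nanog in males read 69.5 and 71.6 RPM at E13.5, 10.24 and 17.4 at E14.5 and 13.3 and 7.76 at E15.5 (log2 fold change -3.63, SE 0.25, adjusted p = 9.45e-12). Esrrb read 69.5 and 69.9 RPM at E13.5, 9.04 and 10.6 at E14.5 and 14.8 and 4.94 at E15.5 (log2 fold change -4.12, SE 0.28, adjusted p = 1.08e-11). Klf2 was down to 2.11 and 2.29 RPM at E14.5 and 2.22 and 2.12 at E15.5, and Nr0b1 was listed at 0 in both male libraries of E15.5, at least 30.0-fold lower than at E11.5. Sox2 kept a larger share of its level at E15.5 than Nanog and Esrrb, with 134 and 149.7 RPM at E13.5, 59.4 and 79.7 at E14.5 and 48.9 and 35.3 at E15.5 (log2 fold change -2.76, SE 0.28, adjusted p = 9.58e-09). Tfcp2l1 moved against the others between E13.5 and E14.5, to 40.7 and 44.6 RPM at E14.5, against 16.2 and 13.1 at E13.5 (log2 fold change 1.48, SE 0.26, adjusted p = 4.41e-05), while 5 of the 9 fell over that step. Of all genes 19% rose and 13.3% fell. It then stood at 30.4 and 18.4 RPM at E15.5. The median log2 fold change of male E15.5 against E11.5 was -2.76 over the 9 members and 0.21 over all genes.

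A list of 9 fibroblast markers stood higher at these last stages, with a sum of 12.8 to 44.6 RPM in females and 56.3 to 129.5 RPM in males over E14.5 and E15.5, against 3.76 to 5.77 at E11.5. The 12 markers of gonadal somatic cells summed to 26.2 to 43.1 RPM in females and 47.1 to 78.3 in males, against 8.85 to 12.2 at E11.5, with Amh at 0. The blood and endothelium list summed to 40.3 to 213 RPM in females and 34.1 to 193 in males, against 114 to 127 at E11.5. Their part in the falls was not tested.

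Set side by side, the sexes differed in 1 member at E12.5 and 1 a day later, then in 7, and in 5 at E15.5. The first was Klf2, at E12.5, with 40.0 and 66.9 RPM in females and 10.8 and 24.7 in males (log2 fold change 1.60, SE 0.34, adjusted p = 0.00261), where 3.77% of all genes were higher and 2.75% lower in females. At E13.5 Utf1 was lower in females, with 298 and 332 RPM against 715 and 746 in males (log2 fold change -1.21, SE 0.14, adjusted p = 9.97e-07), the 1 member called among 6.31% of all genes. At E14.5 there were 6 lower in females (Pou5f1, Sox2, Nanog, Zfp42, Tfcp2l1 and Utf1) against 25.9% of all genes, and 1 higher (Klf2) against 22.4%. Tfcp2l1 read 12.4 and 19.4 RPM in females, against 40.7 and 44.6 in males (log2 fold change -1.40, SE 0.26, adjusted p = 5.17e-05). Zfp42 read 25.2 and 24.4 RPM in females, against 53.2 and 53.0 in males (log2 fold change -1.07, SE 0.16, adjusted p = 2.69e-06). Klf2, the one that was higher, read 10.6 and 5.20 RPM in females, against 2.11 and 2.29 in males (log2 fold change 1.41, SE 0.34, adjusted p = 8.38e-04). The Klf2 call was lost without replicate 1 (log2 fold change 0.92), and those of Klf2 (0.81) and Zfp42 (-0.96) with a pseudocount of 5 RPM. None of these 3 was called at E15.5. There, 5 members were lower in females, against 30.0% of all genes, and 0 higher. With no minimum fold change no member is higher at E15.5 either, and at an unadjusted p under 0.05 the count is again 0, but quantile normalization calls Klf2 higher (log2 fold change 1.26).

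The 5 were Utf1, Pou5f1, Nanog, Sox2 and Esrrb. Utf1 at E15.5 had 7.30 and 5.01 RPM in females, against 548 and 655 in males (log2 fold change -6.41, SE 0.14, adjusted p = 1.58e-20). Pou5f1 had 9.43 and 10.0 RPM in females, against 249 and 295 in males (log2 fold change -4.66, SE 0.11, adjusted p = 4.31e-20). Nanog was at 0 in the females and at 13.3 and 7.76 RPM in the males, at least 11.6-fold lower in females. Sox2 had 7.61 and 1.95 RPM in females, against 48.9 and 35.3 in males (log2 fold change -3.08, SE 0.28, adjusted p = 1.02e-09). Esrrb had 1.52 and 2.23 RPM in females, against 14.8 and 4.94 in males (log2 fold change -1.77, SE 0.28, adjusted p = 6.34e-06), a call that was lost without replicate 1. The libraries of the sexes do not overlap for any of the 5.

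Of the remaining 4, Klf2 averaged 3.24 ± 1.44 RPM in females and 2.17 ± 0.0749 in males, and Tfcp2l1 18.7 ± 3.64 in females and 24.4 ± 8.51 in males (SD, n = 2). The intervals of their log2 differences were -0.32 to 1.08 for Klf2 and -0.87 to 0.20 for Tfcp2l1. Zfp42 averaged 24.5 ± 1.75 RPM in females and 41.5 ± 4.499 in males, a log2 difference of -0.73 that is past the p but not the size. Nr0b1 was under the level of 3 reads in both sexes. As a difference of differences (female less male, E15.5 less E12.5), 6 members fell further in females, among 27.7% of all genes: -5.82 for Utf1, -4.59 for Pou5f1, -3.85 for Nanog, -3.50 for Sox2, -1.66 for Esrrb and -1.22 for Klf2. Klf2 had already been low in males at E12.5, and its value here lost its call under 6 of the settings tried. Esrrb lost its own without replicate 1 (-0.67) and with a pseudocount of 5 RPM (-0.93).

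Under CT no member was called after day 3. Between day 0 and CT day 3 only Zfp42 was called, at 278 and 204 RPM at day 3, against 128 and 99.3 at day 0 (log2 fold change 1.07, SE 0.21, adjusted p = 0.00142), with 3.03% of all genes higher and 2.43% lower. That call was lost without replicate 1 and with quantile normalization. Under CT at days 5, 7 and 9 none of the 10 members was called against CT day 3 in either direction by limma, where 0.590% of all genes were lower and 1.66% higher at day 9. At an unadjusted p under 0.05, 2 members were lower at day 9, and with no minimum fold change the count is 1, Utf1. The median share of the day 3 level left was 91.1% at day 5, 78.8% at day 7 and 88.3% at day 9. Nanog read 217 and 150.5 RPM at day 5, 162 and 209 at day 7 and 188 and 232 at day 9, and Pou5f1 449 and 491, 415 and 527 and 474 and 558 on the same days.

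**Figure D2:**
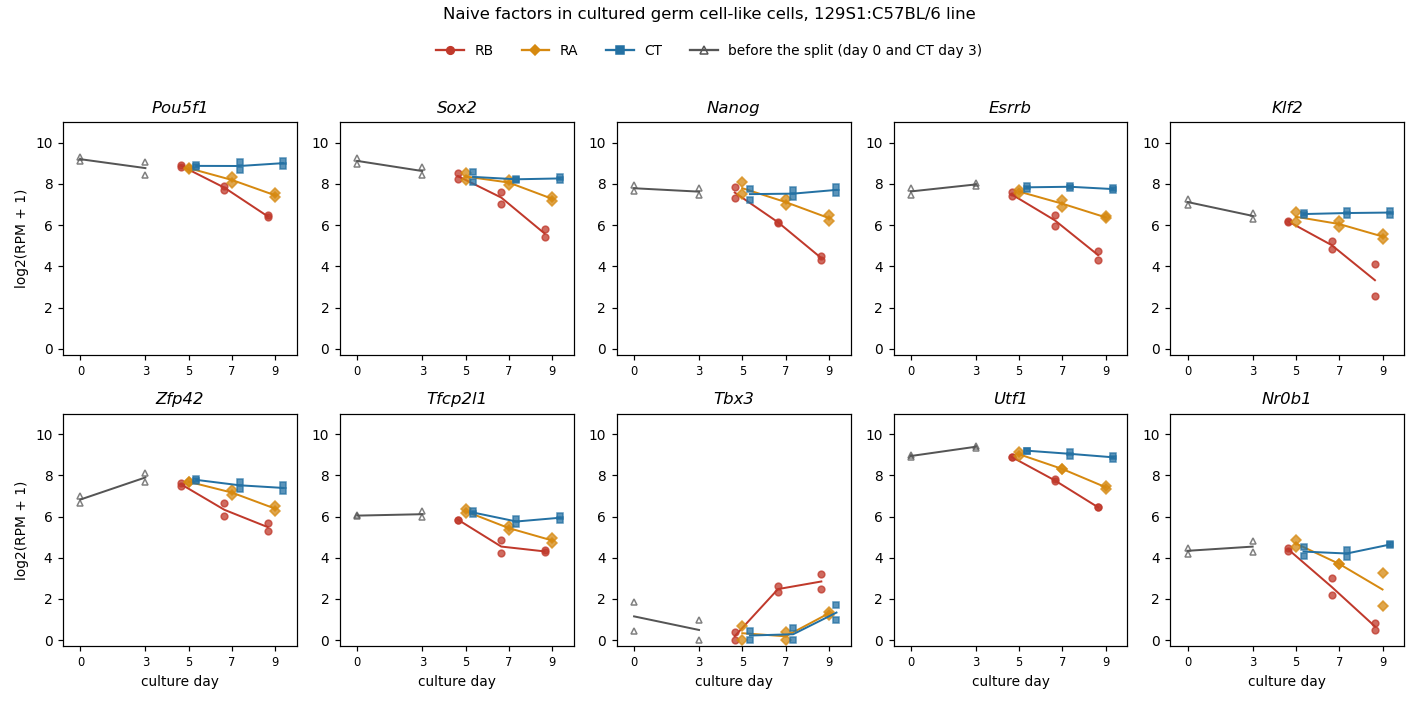
Levels of the 10 members in the 129S1:C57BL/6 line, as log2(RPM + 1) on the vertical axis against culture day. Each point is 1 library (2 per group), lines join group means, RB is red circles, RA orange diamonds, CT blue squares, and open triangles are day 0 and CT day 3. From day 7 the RB points of 9 members lie below the CT points, RA lies between, and Tbx3 goes up under RB.

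Against CT of the same day, members were first called at day 7 under RB and at day 9 under RA. At day 5 limma called no member for RB or RA against CT, nor for RB against RA (0 also at an unadjusted p under 0.05 for RB against RA), while 0.118% of all genes were lower under RB and 0.0168% under RA than under CT. At an unadjusted p under 0.05 there was 1 lower for RB and 0 for RA. The median share of the CT day 3 level left was 82.6%, 33.8% and 12.2% at days 5, 7 and 9 under RB. Under RA it was 97.5%, 62.0% and 38.9%. Esrrb had 89.9 and 61.5 RPM under RB at day 7 and 148 and 115 under RA, against 225 and 239 under CT. Utf1 had 223 and 208 RPM under RB and 317 and 316 under RA, against 496 and 562 under CT. The 3 conditions do not overlap in either gene. At day 7 there were 8 lower under RB than under CT (all but Sox2 and Tbx3, with Sox2 at 197 and 132 RPM under RB and 293 and 304 under CT), against 3.62% of all genes, and 0 lower under RA, against 0.531%. For RA at day 7, 3 members were lower at an unadjusted p under 0.05, and 3 with no minimum fold change. At day 9 there were 9 lower under RB than under CT, against 12.1% of all genes, and 8 under RA than under CT, against 3%. At day 7 the RB calls of Pou5f1 and Nr0b1 were lost without replicate 2, and that of Pou5f1 also with quantile normalization. At day 9 the RA calls of Klf2 and Nr0b1 were lost without replicate 2, and that of Zfp42 without replicate 1 and with a pseudocount of 5 RPM. The comparisons of RB with CT and of RA with CT share their CT libraries. As a difference of differences (day 9 less day 5), RB less CT was lower for 9 members, among 9.54% of all genes, and RA less CT for 7, among 1.10%.

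The core trio at day 9 shows the order of the 3 conditions. Nanog read 18.7 and 21.7 RPM under RB and 72.8 and 88.3 under RA, against 188 and 232 under CT. Its log2 fold change was -3.31 for RB against CT (SE 0.22, adjusted p = 1.84e-11) and -1.37 for RA against CT (SE 0.22, adjusted p = 6.36e-05). Sox2 read 54.4 and 41.3 RPM under RB and 146 and 164 under RA, against 324 and 292 under CT. It fell under RB (log2 fold change -2.67, SE 0.20, adjusted p = 1.81e-10), and under RA its log2 fold change was -0.99 (95% interval -1.41 to -0.57, adjusted p = 8.64e-04), just short of the size, and called with median centring. Pou5f1 read 87.8 and 82.6 RPM under RB and 161 and 186 under RA, against 474 and 558 under CT (log2 fold change -2.58, SE 0.18, adjusted p = 3.23e-11, for RB against CT). No library of one condition overlaps one of another for these 3 genes.

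Around the core, Esrrb, Klf2 and Nr0b1 had fitted falls of over 3 on the log2 scale under RB against CT. Esrrb read 26.2 and 19.0 RPM under RB and 79.7 and 84.8 under RA, against 224 and 206 under CT (log2 fold change -3.21, SE 0.18, adjusted p = 1.74e-12, for RB against CT). Klf2 read 16.3 and 4.83 RPM under RB and 46.9 and 38.8 under RA, against 90.6 and 103 under CT (log2 fold change -3.29, SE 0.30, adjusted p = 3.52e-09, for RB against CT). Nr0b1 was down to 0.397 and 0.805 RPM under RB and 8.51 and 2.19 under RA, against 23.5 and 24.6 under CT, and had the largest fitted change of the members, which rests on 1 and 3 reads in the RB libraries and depends on the pseudocount (log2 fold change -3.98, SE 0.39, adjusted p = 9.66e-09, for RB against CT). Tfcp2l1 had the smallest of the falls, with 19.5 and 18.2 RPM under RB and 25.2 and 30.4 under RA, against 56.9 and 64.4 under CT (log2 fold change -1.63, SE 0.20, adjusted p = 4.07e-07, for RB against CT). Zfp42 and Utf1 fell by 1.90 and 2.43 on the log2 scale for RB against CT, to 50.8 and 38.0 RPM of Zfp42 and 86.6 and 86.4 RPM of Utf1 under RB.

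Set directly against RA at day 9, RB had 6 members lower (Pou5f1, Sox2, Nanog, Esrrb, Klf2 and Nr0b1), against 11.7% of all genes, with log2 fold changes of -1.02 for Pou5f1, -1.68 for Sox2, -1.94 for Nanog, -1.83 for Esrrb, -2.12 for Klf2 and -1.79 for Nr0b1. The other members but Tbx3 were lower by less than the size required: -0.97 for Utf1 (95% interval -1.24 to -0.71), -0.89 for Zfp42 (95% interval -1.32 to -0.47) and -0.53 for Tfcp2l1 (95% interval -0.95 to -0.11). At day 7 the single member called lower was Klf2, at 36.5 and 27.5 RPM under RB and 72.5 and 59.1 under RA, among 1.04% of all genes. That count ran from 0 to 7 over the settings tried. Pou5f1 lost its day 9 call when replicate 2 was left out, Nr0b1 lost its own when replicate 1 was, and both did with a pseudocount of 5 RPM.

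The median log2 fold change at day 9 was -2.63 over the members and 0.19 over all genes for RB against CT, -1.27 and 0.20 for RA against CT, and -1.35 and -0.05 for RB against RA. The RA libraries of day 9 stood apart in the 9 feeder and fibroblast genes, which summed to 38.9 to 94.5 RPM under RB and 253 to 353 under RA, against 52.4 to 129 under CT. Of the 9, 1 was at 0 in both libraries under RB and none under RA or CT. The 12 gonadal somatic markers summed to 40.8 to 72.7 RPM under RB and 35.9 to 36.1 under RA, against 9.70 to 15.7 under CT, with Amh and Nr5a1 at 0. The blood and endothelium list summed to 20.1 to 34.1 RPM under RB and 48.1 to 51.6 under RA, against 73.6 to 98.1 under CT, nearly all of it Pecam1, with Hbb-y, Hba-x, Cdh5 and Ptprc at 0. Their part in these differences was not tested.

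**Figure D3:**
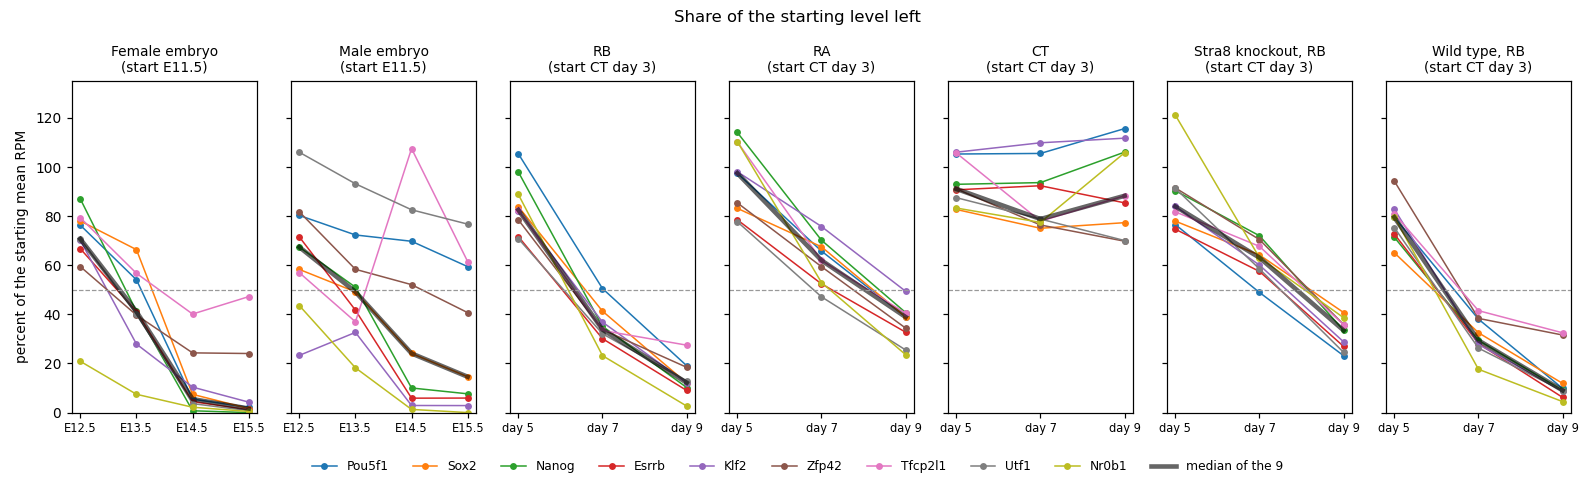
Share of the starting mean RPM left, in percent on the vertical axis, for 9 members (all but Tbx3, which was near 0 at the start) along each course, with the median in black and the 50% line dashed. The start is E11.5 in the embryo and CT day 3 in culture. By the last time point the median is 1.65% in females and 14.6% in males, 12.2% under RB, 38.9% under RA and 88.3% under CT, and 33.4% in Stra8 knockout and 9.02% in wild type cells under RB.

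Read as the first time at which all libraries of a group were under 50% of the starting mean, the order of loss was not the same everywhere. In females Nr0b1 came first (E12.5), then Nanog, Esrrb, Klf2, Zfp42 and Utf1 (E13.5), then Pou5f1, Sox2 and Tfcp2l1 (E14.5). In males it was Klf2 (E12.5), then Esrrb, Tfcp2l1 and Nr0b1 (E13.5), then Sox2 and Nanog (E14.5), then Zfp42 (E15.5). Pou5f1 and Utf1 were never under 50% in males. The crossing of Tfcp2l1 in males did not last: its mean was back to 107.5% of the start the next day (E14.5). By E15.5 the male mean of Tfcp2l1 was 61.5%, again over the line. Under RB 8 of the 9 passed the line by day 7 and Pou5f1 by day 9. Under RA Utf1 passed at day 7, 7 others at day 9 and Klf2 not at all, with 49.4% left. Wild type cells of the Stra8 experiment had 8 of the 9 past the line at RB day 7 and Tfcp2l1 at day 9, and knockout cells had all 9 past it at day 9 and none before.

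In Stra8 knockout cells 9 members fell under RB by day 9, as in wild type cells, and 7 of these 9 were then still higher than in wild type cells. At CT day 3 and at RB day 5 limma called no member between knockout and wild type cells, where 1 gene at day 3 and 2 at day 5 were called of the 12206 tested. At an unadjusted p under 0.05 there was no member at day 3 and 1 higher at day 5. At RB day 7 there were 6 higher in the knockout (Sox2, Nanog, Esrrb, Klf2, Utf1 and Nr0b1), against 3.16% of all genes, and none lower. Sox2 (1.01) and Utf1 (1.01) were close to the size required there. Sox2 lost its call with each knockout line counted once (0.94), without wild type replicate 1 (0.78) and without knockout replicate 1, 2 or 3 (0.89, 0.95 and 0.99). Utf1 lost its call with the replicate number as a block (0.93), without wild type replicate 2 (0.57) and without knockout replicate 2 (0.92), and both lost it with a pseudocount of 5 RPM. At RB day 9 there were 8 higher, against 10.8% of all genes, and 0 lower, against 8.35%, also at an unadjusted p under 0.05. The count of 8 held without any single knockout library and with each knockout line counted once, and was 7 without wild type replicate 2.

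**Figure D4:**
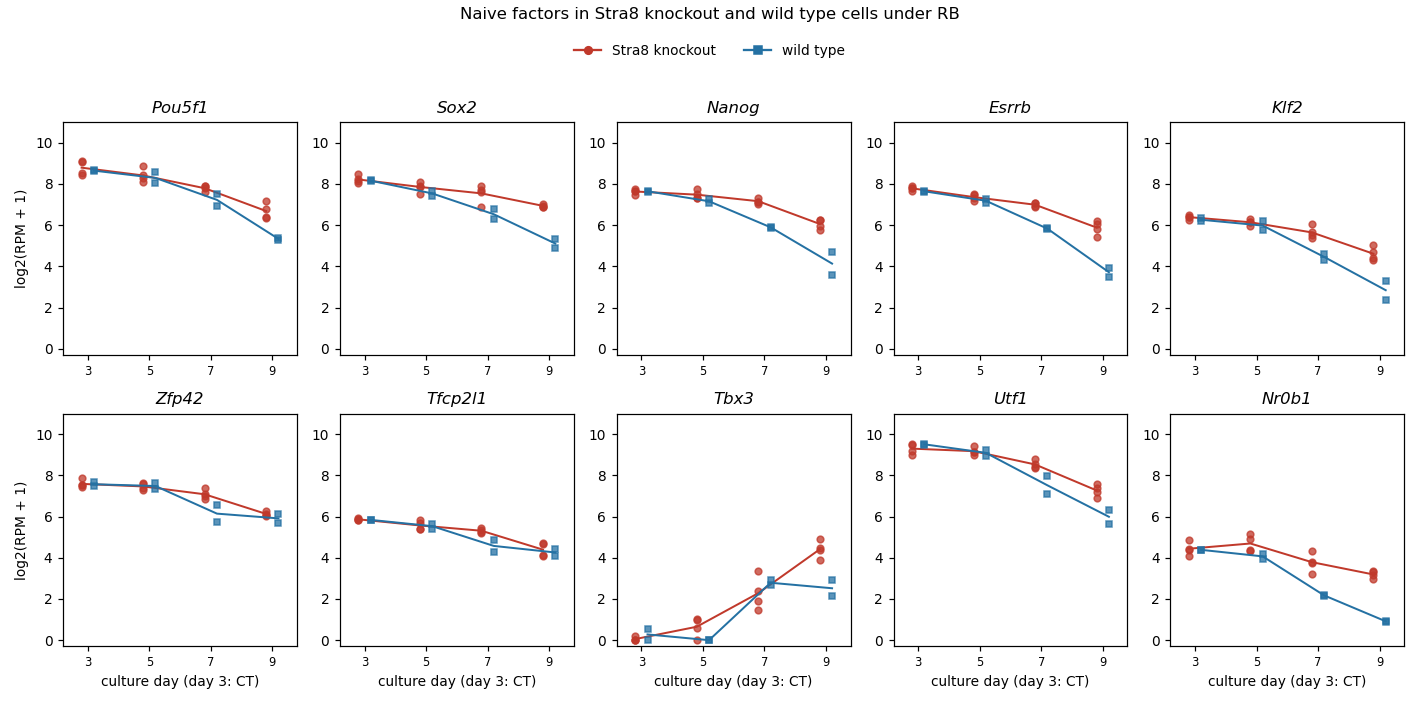
Levels of the 10 members in Stra8 knockout and wild type cells, as log2(RPM + 1) on the vertical axis against culture day (CT at day 3, RB from day 5). Each point is 1 library, with 4 knockout (red circles) and 2 wild type (blue squares) libraries per day, and lines join group means. At day 9 the knockout points of 8 members lie above the wild type points, while those of Zfp42 and Tfcp2l1 overlap with them.

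Esrrb read 116, 134, 121 and 136 RPM at day 7 and 73.7, 41.9, 56.0 and 65.7 at day 9 in the knockout, against 56.5 and 55.4 at day 7 and 14.3 and 10.3 at day 9 in wild type cells (day 9: log2 fold change 2.17, SE 0.16, adjusted p = 6.03e-12). Nanog read 131, 141, 159.6 and 139 RPM at day 7 and 54.2, 60.8, 75.1 and 74.9 at day 9 in the knockout, against 59.4 and 57.8 at day 7 and 25.2 and 10.8 at day 9 in wild type cells (day 9: log2 fold change 1.92, SE 0.19, adjusted p = 1.77e-09). Sox2 read 242, 211, 196 and 119 RPM at day 7 and 118, 129.5, 117 and 122 at day 9 in the knockout, against 77.5 and 108 at day 7 and 38.6 and 29.0 at day 9 in wild type cells (day 9: log2 fold change 1.83, SE 0.19, adjusted p = 3.36e-09). Every knockout library of day 7 and of day 9 lies above both wild type libraries of that day for these 3 genes.

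Pou5f1 at day 9 read 145, 84.4, 81.3 and 108 RPM in the knockout, against 40.3 and 38.4 in wild type cells (log2 fold change 1.35, SE 0.21, adjusted p = 7.04e-06). Klf2 read 19.1, 24.9, 31.6 and 20.1 RPM in the knockout, against 4.20 and 8.90 in wild type cells (log2 fold change 1.77, SE 0.22, adjusted p = 1.76e-07), and Nr0b1 8.76, 7.85, 9.09 and 6.95 in the knockout, against 0.839 and 0.936 in wild type cells (log2 fold change 2.27, SE 0.31, adjusted p = 5.04e-07). Utf1 read 167, 120.4, 143 and 193 RPM in the knockout, against 79.7 and 49.2 in wild type cells (log2 fold change 1.28, SE 0.20, adjusted p = 4.17e-06), and this is the call lost without wild type replicate 2. The groups do not overlap for any of these 4 genes. Nr0b1 rests on 67 reads in the knockout and 3 in wild type cells, a pooled level in the knockout of 929% (exact 95% interval 305 to 4620.1%, counting error only) of the wild type one.

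Zfp42 and Tfcp2l1 did not pass the test at day 9. Zfp42 read 67.8, 65.1, 67.5 and 76.1 RPM in the knockout, against 51.2 and 68.6 in wild type cells (log2 fold change 0.22, 95% interval -0.15 to 0.58). Tfcp2l1 read 24.3, 16.4, 15.8 and 25.5 RPM in the knockout, against 15.9 and 20.6 in wild type cells (log2 fold change 0.14, 95% interval -0.29 to 0.56). At day 7 both had been higher in the knockout, by 0.94 for Zfp42 (adjusted p = 3.38e-04) and 0.74 for Tfcp2l1 (adjusted p = 0.0127) on the log2 scale, short of the size.

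Each genotype was also set against its own CT day 3. In the knockout at RB day 7, 0 members had fallen by the required size, against 3.99% of all genes, although 9 were lower with no minimum fold change and at an unadjusted p under 0.05. Their median level was 63.1% of the start, against 29.4% in wild type cells, where 9 had fallen, against 7.45% of all genes. At RB day 9 the same count was 9 in the knockout, against 8.34% of all genes, and 9 in wild type cells, against 15.9%. The median share left was then 33.4% in the knockout and 9.02% in wild type cells. The median log2 fold change at day 9 was -1.52 in the knockout, with 0.27 over all genes, and -3.37 in wild type cells, with 0.23 over all genes. As a difference of differences (knockout less wild type, day 9 less day 3), 8 members were higher, among 8.66% of all genes. Of these, Pou5f1 and Tbx3 lost the call without wild type replicate 2.

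The 9 feeder and fibroblast genes summed to 17.0 to 28.2 RPM in the knockout and 21.1 to 38.6 in wild type cells at RB day 9, and to 123 to 176 in the knockout and 149 to 159.6 in wild type cells at CT day 3. The gonadal somatic markers summed to 35.2 to 49.3 RPM in the knockout and 38.9 to 39.5 in wild type cells at RB day 9. The blood and endothelium list moved with the members. It summed to 138 to 207 RPM in the knockout and 66.3 to 95.6 in wild type cells at RB day 7, and to 66.1 to 109 in the knockout and 21.5 to 34.4 in wild type cells at RB day 9. Nearly all of that sum was Pecam1, an adhesion molecule of endothelium that germ cells and embryonic stem cells also express, at 89.6 ± 17.8 RPM in the knockout (n = 4) and 27.3 ± 8.84 in wild type cells (n = 2) at RB day 9. Of the other 7, Hbb-y, Hba-x and Ptprc were at 0 in both genotypes at RB days 7 and 9. The part of the 3 lists was not tested. Line SK3, which kept the most Stra8 signal, lay inside the range of the other knockout libraries at RB day 9 for Pou5f1, Sox2, Nanog, Esrrb and Klf2, above it for Zfp42, Tfcp2l1 and Utf1, and below it for Tbx3 and Nr0b1.

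Tbx3 went the other way from the rest in culture. Under RB it read 0 and 0.308 RPM at day 5, 4.08 and 5.12 at day 7 and 8.34 and 4.56 at day 9, while under RA it read 0.297 and 0 at day 7 and 1.58 and 1.37 at day 9, and under CT 0.490 and 0 at day 7 and 0.964 and 2.26 at day 9. It was higher under RB than under CT at day 7 (log2 fold change 2.19, SE 0.50, adjusted p = 0.00169), where 15.7% of all genes were higher, and at day 9 (log2 fold change 1.51, SE 0.50, adjusted p = 0.0128), where 24.6% were. The day 7 values rest on 30 reads under RB and 2 under CT. The day 7 call was lost with a pseudocount of 5 RPM (0.87). The day 9 call was lost with pseudocounts of 0.25 or 5 RPM and with quantile normalization. It was also higher under RB than under RA at day 9 (log2 fold change 1.55, SE 0.50, adjusted p = 0.0151), where 13.1% of all genes were, a call lost with the same 2 pseudocounts and without replicate 2.

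The highest Tbx3 levels of the whole series were in the knockout at RB day 9, at 21.4, 28.8, 19.6 and 13.9 RPM, against 3.36 and 6.56 in wild type cells (log2 fold change 1.89, SE 0.44, adjusted p = 8.83e-04). The 4 knockout libraries all lie above both wild type ones. In the knockout it had stood at 2.78, 9.19, 1.79 and 4.21 RPM at RB day 7, against 6.52 and 5.34 in wild type cells. Against CT day 3 it rose in the knockout at RB day 9 (log2 fold change 4.36, SE 0.36, adjusted p = 4.39e-12) among 25.6% of all genes, and in wild type cells (log2 fold change 2.24, SE 0.51, adjusted p = 3.17e-04) among 27.8%. At CT day 3 it was at 0 in 3 of 4 knockout libraries and in 1 of 2 wild type libraries, so the fold changes against it depend on the pseudocount, and that of wild type cells lost its call with one of 5 RPM. By pooled reads, 169 in the knockout at RB day 9 stood against 1 at CT day 3, and 18 in wild type cells at RB day 9 against 1 at CT day 3. An antisense gene, Tbx3os1, is annotated at this locus and has no row in the table, so reads of the 2 cannot be told apart unless the counting used strand, which is not given in the sources used here.

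In the 7 libraries that are alone in their group there is no replicate and no test. The library 0R3B, of day 9, held low levels of the members: 16.00 RPM of Pou5f1, 13.02 of Sox2, 1.49 of Nanog, 8.56 of Esrrb, 6.70 of Klf2 and 16.7 of Utf1. These lie under both RB libraries of day 9 for Pou5f1, Sox2, Nanog, Esrrb and Utf1, and between them for Klf2. Its Zfp42 and Tfcp2l1 were at 31.8 and 27.2 RPM, and its Tbx3 was at 5.21. In the C57BL/6 line, the members of c7RB (day 9) stood at 154 RPM of Nanog, 106 of Esrrb, 231 of Sox2 and 172 of Pou5f1, with 255 of Nanog, 166 of Esrrb, 431 of Sox2 and 275 of Pou5f1 in c7CT. Its c7RB library had 10.1 RPM of Tbx3, and c7CT had 3.41. Nr0b1 reached its highest value of all 75 libraries in c7CT, with 113 RPM, next to 77.5 in c7 (day 7) and 18.1 in c7RB. In the 129S1:C57BL/6 line Nr0b1 had 23.5 and 24.6 RPM under CT at day 9.

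Other genes of the naive network, 20 in a list written with results of these data known, mostly fell where the members did. Of 18 tested in the embryo, 15 fell and 1 rose in females at E15.5 against E11.5, where 24.5% of all genes fell. In males 14 fell and 1 rose, where 18.5% of all genes fell. The share of all genes that rose is not reported here. The remaining genes of the list that were tested were not called. Tdh (threonine dehydrogenase, an enzyme that mouse embryonic stem cells depend on) averaged 3.81 ± 1.06 RPM in females and 11.8 ± 0.661 in males at E15.5, against 405 ± 0.757 at E11.5. Sall4, a zinc finger partner of OCT4, separated the sexes like Pou5f1, at 5.66 ± 4.47 RPM in females and 265 ± 24.8 in males (log2 fold change -5.50). The gene that rose was Klf4, a KLF factor of the same family as Klf2. It rose in both sexes, to 7.55 ± 0.349 RPM in females and 58.1 ± 4.64 in males at E15.5, against 2.17 ± 0.103 at E11.5 (SD, n = 2). Its log2 fold change against E11.5 was 1.43 in females and 4.22 in males.

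In culture, of 18 of these genes tested at day 9, 14 fell and 1 (Klf4) rose under RB against CT. Under RA against CT 10 fell, and 10 were lower under RB than under RA. Of all genes 12.1% fell and 24.6% rose under RB against CT. For RA against CT 3% fell, and 11.7% were lower under RB than under RA. Prdm14, a zinc finger factor that germ cell fate depends on, averaged 10.18 ± 3.01 RPM under RB and 39.5 ± 1.44 under RA, against 96.1 ± 15.0 under CT (log2 fold change -3.14 for RB against CT). Between knockout and wild type cells at RB day 9, 14 of 19 were higher in the knockout and none lower. At day 7 there were 10 higher and none lower. Of all genes 10.8% were higher in the knockout at day 9 and 3.16% at day 7. L1td1, an RNA-binding protein of pluripotent cells, averaged 74.0 ± 7.04 RPM in the knockout (n = 4) and 18.0 ± 2.99 in wild type cells (n = 2), a log2 fold change of 1.98. Spic had the largest change of the list, at 5.89 ± 1.97 RPM in the knockout, against 0.234 ± 0.331 in wild type cells. Beside its falls the knockout had 5 of the 19 higher at RB day 9 than at CT day 3. That is near the share over all genes, of which 25.6% were higher. One of the 5 was Gbx2, a homeobox factor downstream of LIF, at 17.6 ± 4.04 RPM at RB day 9, against 1.60 ± 1.55 at CT day 3.

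Genes of the LIF and STAT3 path, the signal that keeps naive stem cells in culture, did not move as one. Of 5 tested (of 6), Lifr (the LIF receptor) and Pim1 (a kinase gene that STAT3 activates) fell and Stat3 and Jak1 rose in females at E15.5 against E11.5, while in males Lifr, Stat3 and Jak1 rose and Il6st (the co-receptor gp130) fell. Of all genes 24.5% fell in females and 18.5% in males over that span. The share of all genes that rose is not reported here, so the rises are not set against it. Lifr was lower in females than in males at E15.5, by a log2 fold change of -4.32. Under RB at day 9 Pim1 was lower (-1.79), and Jak1 (1.35) and Stat3 (1.24) higher than under CT. Of all genes 12.1% were lower and 24.6% higher there. Under RA no gene of this list was called at day 9 against CT by limma.

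Formative and primed genes, which succeed the naive network when stem cells move towards differentiation, did not rise together where the members fell. Of 8 tested in the embryo (of 10), 3 fell (Fgf5, Lef1 and Otx2) and none rose in females at E15.5 against E11.5, while 3 rose (Dnmt3b, Eomes and T) and 1 fell (Fgf5) in males. Of all genes 24.5% fell in females and 18.5% in males over that span. The share that rose is not reported here, so the 3 rises in males are not set against it. In females 6 of the 8 were lower than in males at E15.5, where 30.0% of all genes were. Of 6 tested in the 129S1:C57BL/6 line, RB at day 9 had 2 higher (Sox3, 2.25, and Eomes, 1.36) and 3 lower (Otx2, -3.73, Lef1, -1.46, and Dnmt3b, -1.32) than CT, as log2 fold changes. Of all genes 24.6% were higher and 12.1% lower under RB than under CT. RA at day 9 had 3 higher (Eomes, Sox3 and Dnmt3b) and 2 lower (Lef1 and Otx2) than CT, where 3% of all genes were lower. The share of all genes higher under RA is not reported here. In the knockout 3 were higher than in wild type cells at RB day 9, where 10.8% of all genes were. These were Eomes, Dnmt3b (a de novo DNA methyltransferase) and Pou3f1.

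Over all 37 groups, the levels of the members other than Tbx3 ran in parallel to different degrees. Spearman's rho between 2 members across the 37 group means was 0.30 to 0.92 over the 36 pairs, with a median of 0.77, and was -0.62 to -0.03 for the 9 pairs with Tbx3. The groups share lines, stages and libraries' depth, so these are descriptions. Among 9952 genes that reached 20 RPM in at least 1 group, the gene most like Zfp42 was Gm19442 (rho 0.991), most like Esrrb was Mtss1 (rho 0.948), most like Sox2 was Prdx6 (rho 0.946), and most like Pou5f1 was Galt (rho 0.921). Nr0b1 was most like Gatsl3 (rho 0.921) and then Nanog (rho 0.917). For Klf2 it was Ifitm3 (rho 0.921), a membrane protein of early germ cells, for Utf1 Pprc1 (rho 0.913), for Tfcp2l1 Fblim1 (rho 0.898), and for Tbx3 Fuca2 (rho 0.797).

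The members lie on 9 chromosomes (GRCm38, RefSeq), with Zfp42 at chr8:43295067-43307009 and Klf2 at chr8:72319062-72321654 the only pair on one. The others are Tfcp2l1 (chr1:118627923-118685168), Sox2 (chr3:34649995-34652461), Tbx3 (chr5:119670534-119684724), Nanog (chr6:122707489-122714633), Utf1 (chr7:139943856-139945112), Esrrb (chr12:86361117-86521628), Pou5f1 (chr17:35506032-35510777) and Nr0b1 (chrX:86191775-86195947). Nanog and Zfp42 have pseudogene copies in the annotation that are not rows of the table. An RNA of the same strand, Sox2ot, overlaps Sox2, and an antisense gene, Gm19553, overlaps Pou5f1, and both have a row. A share of the reads of these members may thus have been split between copies or neighbours by the authors' counting. In the second E9.5 library the estimated reads were 1929.5 for Pou5f1 and 117.5 for Zfp42, which are not whole. There Nanog and Sox2 had whole reads, 582 and 1637.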

How the data were processed

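The 10 members and the gene lists were chosen with earlier results of these data known. Per the submitters' processing notes, the authors' tools were Cufflinks 2.2.0, Bowtie 1.0.1, cutadapt 1.11 and TopHat 1.4.1, and the genome was mm10. The authors deposited 1 signal value per gene and library, named as RPM, reads per 1000000 reads. Reads were of 3' ends, so a level was not divided by length and levels of different genes are not compared. The settings of the counting, strand included, are not given in the sources used here.

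From the deposited table, 96 spike-ins were left out and 2777 values below 0.001 were set to 0, which left 26218 genes. The value of 1 read was estimated from the spacing of low values (80.9 to 93.2% of low values were whole reads, tolerance 0.05), which gave depths of 1.08e+06 to 1.56e+07 reads (median 3.12e+06) and the floor of 3 reads. Exact intervals and floors cover counting error only. The intervals of log2 fold changes are those of limma and rest on the spread between libraries.

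Genes with at least 5 RPM in at least 2 libraries of an experiment were tested with limma 3.58.1 (R 4.3.3, variance trend) on log2(RPM + 1), with 1 mean per group, in 3 fits: 22 embryo libraries (12567 genes), 22 of the 129S1:C57BL/6 line (11873) and 24 of the Stra8 experiment (12206). The fits were tested on simulated data. Tables were made in Python 3.11.15 with pandas 2.3.3 and scipy 1.17.1. Alternatives were pseudocounts of 0.25 and 5 RPM, no filter and a filter of 20 RPM, median centring, quantile normalization, no variance trend, no minimum fold change, only the groups compared, the replicate number as a block, each replicate left out, and each knockout line counted once. All members are named. Of the other lists, up to 4 called genes with the largest change were named per comparison, and of likeness the top genes by Spearman's rho, those for Nanog not being reported here. Klf4 and other genes behind counts of 5 or fewer were named after their values were seen. The 7 libraries alone in their group entered no test.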

Additional observations from a re-analysis of the deposited data

Results flagged for a closer look

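Between the sexes, the difference of female less male was not the same at E15.5 as at E12.5 for 6 members, by a test of that change in the limma fit, on the log2 scale: -4.59 for Pou5f1, -3.50 for Sox2, -3.85 for Nanog, -1.66 for Esrrb, -1.22 for Klf2 and -5.82 for Utf1. Nr0b1, Zfp42 and Tfcp2l1 were not called in it.

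The difference of RB less CT changed between day 5 and day 9 for all 9 members other than Tbx3: -2.58 for Pou5f1, -2.71 for Sox2, -3.39 for Nanog, -2.87 for Esrrb, -2.92 for Klf2, -1.28 for Tfcp2l1, -4.08 for Nr0b1, -1.69 for Zfp42 and -2.12 for Utf1, where 9.54% of all genes were lower. The difference of RA less CT changed for 7 of them: -1.45 for Pou5f1, -1.01 for Sox2, -1.66 for Nanog, -1.17 for Esrrb, -1.16 for Tfcp2l1, -2.58 for Nr0b1 and -1.28 for Utf1, where 1.10% of all genes were lower. Of these 7, all but Nanog and Utf1 lost the call for RA when replicate 2 was left out, and Sox2, Esrrb and Tfcp2l1 also when replicate 1 was. For RB, Tfcp2l1 lost it without replicate 2. RA and RB share the CT libraries here.

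The difference of knockout less wild type changed between day 3 and day 9 for 8 members: 1.21 for Pou5f1, 1.77 for Sox2, 1.94 for Nanog, 2.03 for Esrrb, 1.64 for Klf2, 2.22 for Nr0b1, 2.12 for Tbx3 and 1.49 for Utf1. Without wild type replicate 2 Pou5f1 (1.17) and Tbx3 (2.23) lost the call, and Tbx3 also lost it without wild type replicate 1 (2.00) and with a pseudocount of 0.25 RPM (2.63).

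Of 40 sets of 4 libraries looked at for a library far from the others (10 members at 4 days in the knockout), 1 stood out: Tbx3 at CT day 3, at 0.160 RPM in line SK2 and 0 in the other 3. That is 1 read, under the level of 3 reads. Any set with 3 libraries at 0 and 1 above 0 is marked by this rule, so the mark says nothing more. Among normally distributed values chance alone marks about 1 in 20 sets, a rate that does not hold for values near 0.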

How the results depend on the processing

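The 12 counts the study's design turns on were recomputed under 153 combinations of count and setting, and 152 stayed within 1.5 times with none reversed. The exception was CT day 9 against CT day 3, where the count of members lower was 0 and became 1 (Utf1, log2 fold change -0.51) with no minimum fold change. When each replicate was left out in turn, the number lower was 8 to 9 for female E15.5 against E11.5 (without Tfcp2l1 at -0.54), 6 to 7 for male E15.5 against E11.5 (with Tfcp2l1 at -1.33), 4 to 5 for female against male at E15.5 (without Esrrb at -0.88), 7 to 7 for RA against CT at day 9 and 5 to 6 for RB against RA at day 9, and the number higher was 7 to 8 for knockout against wild type at RB day 9 (without Utf1 at 0.94). Where that leaves 1 library in a group, it was taken to vary like the other groups. For the other counts, 438 stayed, 24 grew and 17 shrank, and of the members' own values, 3248 kept their side of the threshold, 118 lost the call and 21 gained it, all with the same direction. RB against RA at day 7 depended most on the setting, with 3 members lower with median centring, 4 with quantile normalization, 7 with no minimum fold change and 0 with either pseudocount. Klf2 in the difference of the sexes between E15.5 and E12.5 was -0.28 with quantile normalization and -1.09 without replicate 2. Median centring moved every log2 fold change by -0.27 for RA and -0.32 for RB against CT at day 9, by -0.17 for male E15.5 against E11.5, by -0.38 for knockout and -0.26 for wild type RB day 9 against CT day 3, and by 0.12 for knockout against wild type at RB day 7, with no change of direction for any member value that was called. Replicate numbers are shared between groups but the labels do not say what they mean, and same-numbered libraries deviated together at correlations of -0.05 to 0.24. With the replicate number as a block, none of the 12 counts changed, and Klf2 in females at E15.5 against E14.5 (-1.04) and Utf1 in knockout against wild type cells at RB day 7 (0.93) lost their calls. Depth limits Nanog in females and Nr0b1 in both sexes at E15.5, Nr0b1 under RB at day 9, and Tbx3 throughout the embryo.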

Other observations

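The C57BL/6 line was also sampled in single libraries at the start of culture and at day 2. Nanog stood at 211 RPM in d4c0 (day 0), and at day 2 at 241 in c0RB and 222 in c0CT. Pou5f1 stood at 403 RPM in d4c0, 392.4 in c0RB and 322 in c0CT, and Esrrb at 191 in d4c0, 186 in c0RB and 267 in c0CT. Klf2 stood at 145 RPM in d4c0, 61.5 in c0RB and 73.7 in c0CT. Nr0b1 stood at 24.9 RPM in d4c0, 49.9 in c0RB and 40.1 in c0CT. With 1 library each, these differences have no replicate check.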
